A study of Mus musculus with 16 samples.

Results

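The inhibitory receptors of T cells are surface proteins that dampen signalling from the T cell receptor and its co-stimulators. Their genes were followed here in donor T cells from a mouse study of graft-versus-host disease. The cells came from the ovary or spleen of allogeneic recipients, or from the spleen of syngeneic recipients. The group held 9 genes, Pdcd1, Tigit, Lag3, Havcr2, Ctla4, Cd160, Btla, Lilrb4a and Cd200r1, out of 20972 genes with a symbol on the array. A probe belonged to the group when its transcript accession mapped to a member gene, which gave 10 probes. A gene with several probes was read from its brightest one by mean level across the 16 arrays. Lilrb4a was the only member with a further probe. All 9 genes passed the filter on dim probes, which kept 13696 features with a symbol. Tigit was below the scanner's limit for a spot well above background on 2 arrays and Cd160 on 2 arrays. The other 7 members were well above background on all 16 arrays, so their inclusion did not hinge on a single group.

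PD-1 (the product of Pdcd1), CTLA-4, TIGIT, LAG-3, TIM-3 (Havcr2), BTLA and CD160 are low or absent on most resting T cells, BTLA excepted, and several of them appear after stimulation through the antigen receptor. They bind ligands on antigen-presenting or tissue cells and recruit phosphatases or compete with activating receptors for the same ligands. Sustained co-expression of several of them on CD8+ cells is a known feature of chronic stimulation by antigen, and alloreactive donor T cells meet such antigen in the organs of the recipient.

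The samples were female mice of C57BL/6 background, and the sources used here do not name the donor strain. All recipients had haematopoietic stem cell transplantation. Donor CD8+ T cells were profiled on 4 arrays from allogeneic ovary, 3 from allogeneic spleen and 3 from syngeneic spleen, and donor CD4+ T cells on 2 arrays from each of these sources. Ovarian cells of syngeneic recipients were not analysed here, and the sources used here do not state the time after transplantation. The labels do not say that the arrays of a group came from separate animals, so each p-value measures the spread between these samples alone, which may be technical. Precision is limited by how few arrays there are. Each level below is the log2 processed signal of a probe minus the 75th percentile of its array, so that 0 marks that percentile. Levels are compared between arrays and not between genes, because probes differ in how brightly they bind.

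The 75th percentile of the signal ran from 67.6 to 450 units across arrays, and between 41.8% and 59.4% of spots were well above background. Replicate 2 of ovarian CD4+ cells and replicate 2 of allogeneic splenic CD4+ cells were the dimmest arrays, at 68.2 and 67.6. Replicate 1 of the same groups came next, at 133 and 141, and every other array was at 156 or above. All allogeneic CD4+ arrays were thus dimmer than the syngeneic CD4+ and the CD8+ arrays. In comparisons of allogeneic CD4+ cells with either, and in the interaction of transplant and subset, brightness and group cannot be told apart. The arrays lay on 2 slides, each holding every group. All 8 measured pan-T-cell markers were well above background on every array. Cd8a was well above background on no CD4+ array, and Cd4 was lower in CD8+ than in CD4+ cells of the ovary (log2 difference -3.27 ± 0.19 SE), the allogeneic spleen (-3.07 ± 0.20) and the syngeneic spleen (-2.20 ± 0.20), as the labels have it. Cd4 was still well above background on every CD8+ array. Cd8b1 was so on 1 of 2 ovarian and on every splenic CD4+ array, and was lower in allogeneic than in syngeneic splenic CD4+ cells (-1.80 ± 0.30). The part of the other subset in these levels was not tested. Traces of other cells were measured as the summed linear level of marker genes, in multiples of the array's 75th percentile. B-cell markers (10 of 10 on the array) summed to 2.42 to 3.82 in ovarian CD8+ cells, 4.58 to 7.05 in allogeneic splenic CD8+ cells and 18.5 to 31.1 in syngeneic splenic CD8+ cells. The same sum was 3.19 to 3.31 in ovarian CD4+ cells, 11.7 to 12.6 in allogeneic splenic CD4+ cells and 43.4 to 91.6 in syngeneic splenic CD4+ cells. Macrophage and monocyte markers (11 of 12 on the array) summed to 6.45 to 10 across the 3 CD8+ groups. In CD4+ cells they reached 39.4 to 101 in the ovary, 77.3 to 96.2 in the allogeneic spleen and 20.6 to 37.1 in the syngeneic spleen.

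**Figure D1:**
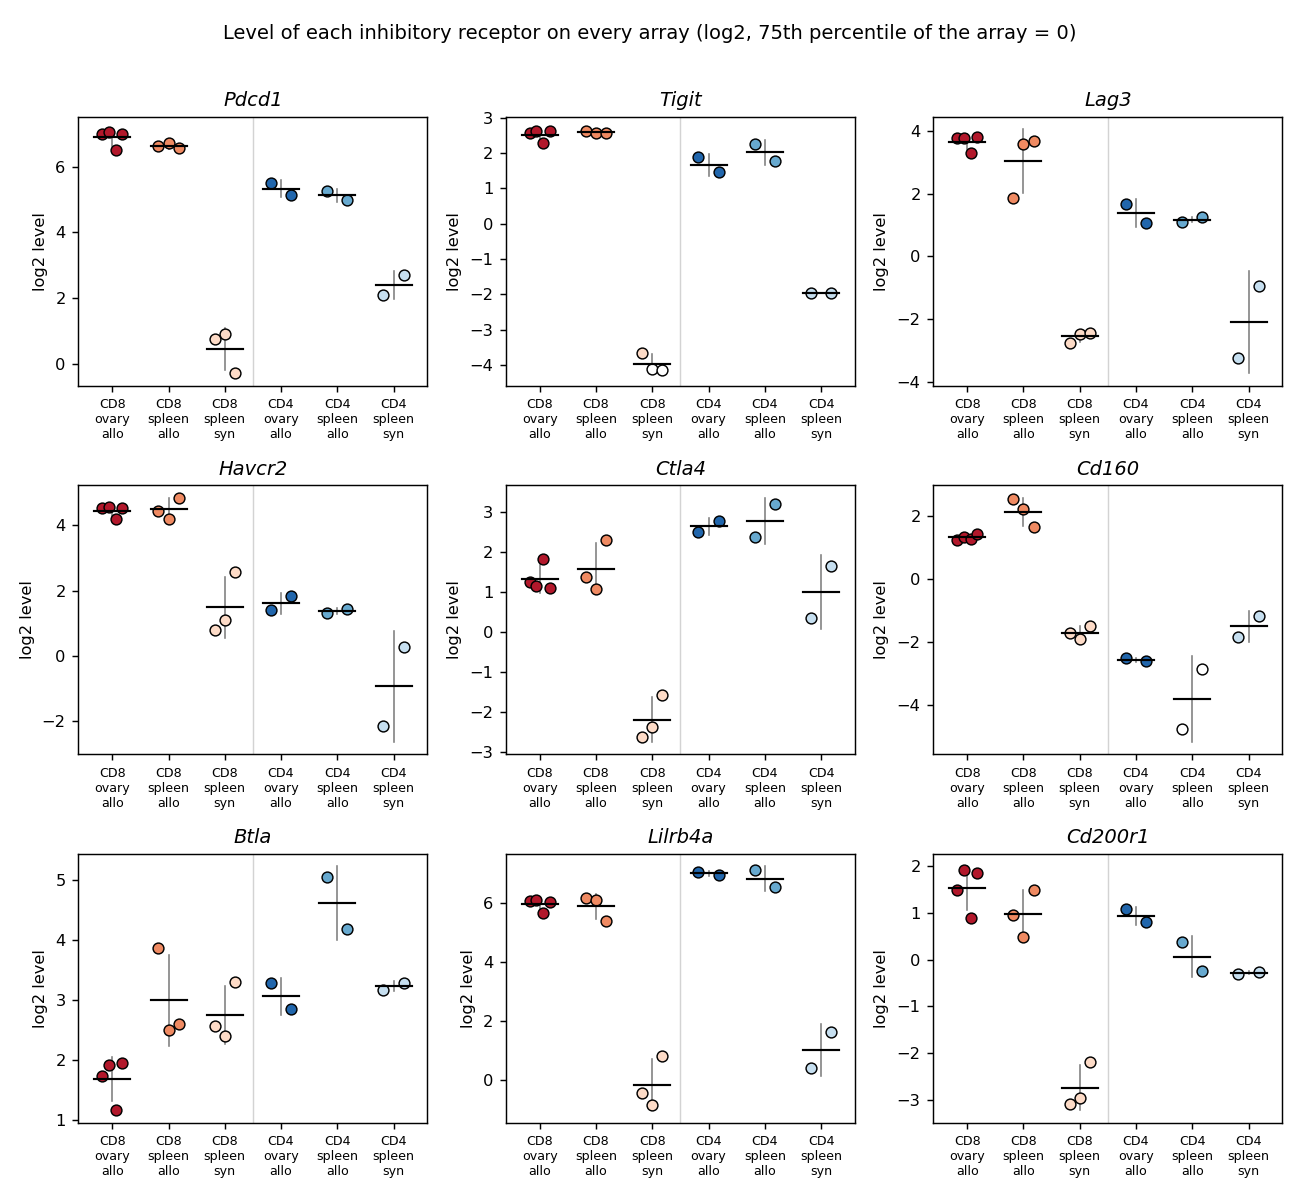
Log2 level of each receptor on every array, with 0 at the array's 75th percentile (y axis, a scale of its own for each gene), for the 6 groups (x axis, CD8+ groups left of the line, CD4+ groups right). Filled points were well above background and open points were not, the horizontal bar is the group mean and the grey bar 1 SD; Pdcd1, Tigit, Lag3 and Lilrb4a sit low on all 5 syngeneic arrays and high on all 11 allogeneic ones.

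The first comparison asked which receptors differed between splenic CD8+ cells of allogeneic recipients, which meet foreign antigen, and those of syngeneic recipients, which do not. Of the 9 receptors, 8 rose after allogeneic transplantation and 0 fell, at an adjusted p under 0.05 in limma, a linear model fitted over all 22835 features with Benjamini-Hochberg adjustment. Among all features 18.8% rose, 19.6% fell and 38.4% changed in either direction. The median difference of the 9 members was 3.85 on the log2 scale, against -0.16 for all features. Btla was the only member not called. The arrays of the groups did not overlap for the 8 called receptors, where 24.2% of all features were higher without overlap.

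Among the receptors for ligands of the B7 and nectin families, Pdcd1, which encodes PD-1, had log2 levels of 6.63, 6.73 and 6.55 in allogeneic CD8+ cells, against 0.76, 0.90 and -0.29 in syngeneic CD8+ cells. The allogeneic arrays lay close together and far above every syngeneic one, a difference of 6.18 ± 0.29 (SE, adjusted p 2.2e-08), or 72.5-fold. Tigit, whose product competes with the activating receptor CD226 for the ligand CD155, had 2.64, 2.58 and 2.56 in allogeneic CD8+ cells, against -3.66, -4.12 and -4.13 in syngeneic ones. Its difference of 6.56 ± 0.18 (adjusted p 1.18e-09) included 2 of 3 syngeneic arrays not well above background, so its size rests on signal near that limit. After normexp background correction it was 3.94. Ctla4, which competes with CD28 for CD80 and CD86, had 1.37, 1.08 and 2.30 in allogeneic CD8+ cells, against -2.63, -2.37 and -1.56 in syngeneic CD8+ cells, a difference of 3.77 ± 0.42 (adjusted p 2.04e-05).

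Lag3, a CD4-related receptor for MHC class II, had levels of 1.87, 3.58 and 3.67 in allogeneic CD8+ cells, against -2.76, -2.47 and -2.43 in syngeneic CD8+ cells. Replicate 1 of the allogeneic group was the low one, and the difference was 5.59 ± 0.54 (adjusted p 6.82e-06). Havcr2, which encodes TIM-3, had 4.44, 4.18 and 4.85 in allogeneic CD8+ cells, against 0.79, 1.09 and 2.56 in syngeneic ones. Syngeneic replicate 3 stood above its group, and the difference was 3.01 ± 0.54 (adjusted p 0.000866). Lilrb4a, a receptor with inhibitory motifs best known from myeloid cells, had 6.16, 6.10 and 5.40 in allogeneic CD8+ cells, against -0.43, -0.86 and 0.83 in syngeneic CD8+ cells, a difference of 6.04 ± 0.41 (adjusted p 4.14e-07). Its second probe was at least 38.9-fold higher in allogeneic cells, a lower bound because no syngeneic array was well above background: it sets the mean of the brighter group against, on each array of the dimmer one, the probe's own signal or the lowest signal well above background, whichever was higher.

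Cd160 and Btla share the ligand HVEM. Cd160 had 2.53, 2.23 and 1.65 in allogeneic CD8+ cells, against -1.73, -1.90 and -1.50 in syngeneic CD8+ cells, a rise of 3.85 ± 0.39 (adjusted p 9.78e-06). Btla had 3.87, 2.51 and 2.61 in allogeneic CD8+ cells, against 2.58, 2.39 and 3.30 in syngeneic ones. These arrays overlapped, and the difference of 0.24 ± 0.38 (adjusted p 0.649) was not called, with a 95% confidence interval of -0.59 to 1.07. Cd200r1, the receptor for CD200, had 0.95, 0.47 and 1.49 in allogeneic CD8+ cells, against -3.08, -2.95 and -2.19 in syngeneic CD8+ cells, a difference of 3.71 ± 0.33 (adjusted p 3.67e-06). Within slide 1 alone the 8 called differences ran from 3.52 to 6.56, and within slide 2 alone from 3.02 to 6.69, with Havcr2 no longer called on slide 2 (3.02, adjusted p 0.0747). Leaving out any 1 array kept all 8 calls. In a population of cells, fewer cells that carry a transcript and less transcript per cell cannot be told apart.

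Regulatory T cells carry CTLA-4, TIGIT and PD-1 at high levels, so their markers are given beside these receptors. The 8 regulatory T-cell markers summed to 46.0 to 48.9 in allogeneic splenic CD8+ cells, against 12.7 to 15.4 in syngeneic ones. Of the 8, 6 rose and 2 were not called, and Gpr83 was well above background on no array of these groups. Ikzf2 rose by 3.76 ± 0.29 (adjusted p 1.06e-06) and Il2ra by 3.79 ± 0.35 (adjusted p 4.44e-06). Natural killer markers (8 of 8 on the array) summed to 46.0 to 59.5 in allogeneic CD8+ cells and 17.9 to 36.4 in syngeneic CD8+ cells, while of 7 tested, 3 rose and 2 fell. Klre1 rose by 2.94 ± 0.40 (adjusted p 0.000102), and Tyrobp was lower in allogeneic CD8+ cells (-1.96 ± 0.61, adjusted p 0.0242). The part of these cells in the receptor levels was not tested.

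**Figure D2:**
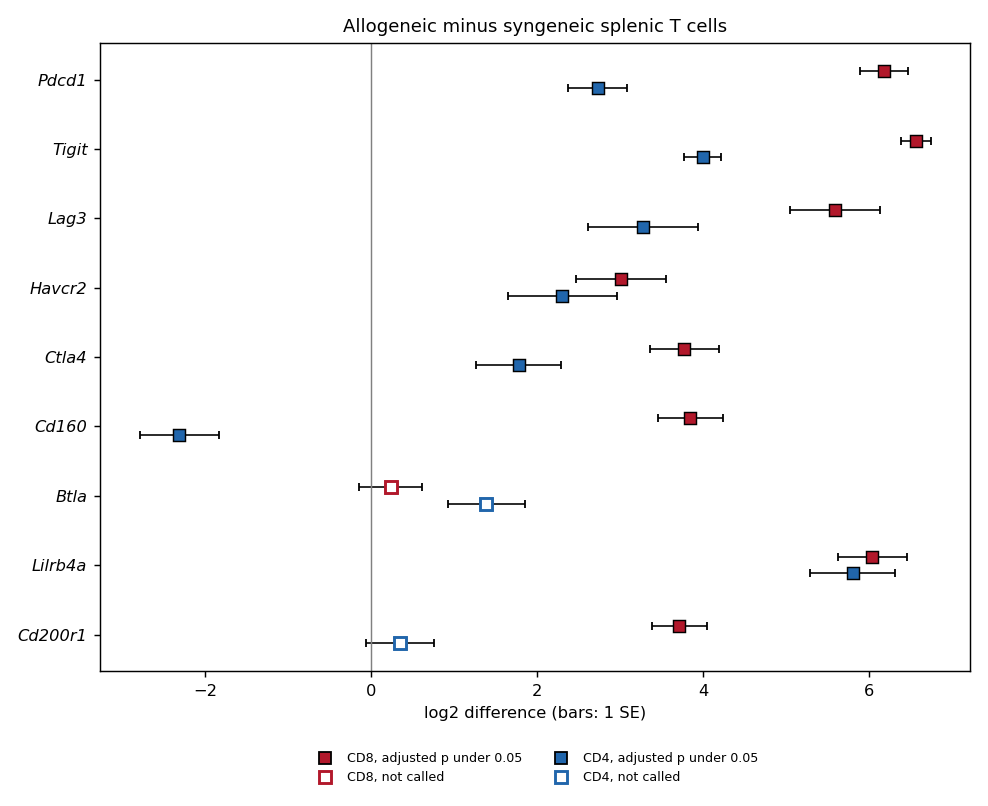
Log2 difference between allogeneic and syngeneic splenic T cells (x axis) for each receptor (y axis), CD8+ above CD4+, with bars of 1 SE; filled squares passed an adjusted p of 0.05. All receptors but Btla lie right of 0 and filled in CD8+ cells, whereas Cd160 lies at -2.31 in CD4+ cells.

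In splenic CD4+ cells, 6 of the 9 receptors rose after allogeneic transplantation and 1, Cd160, fell. Over all features 10.4% rose, 5.7% fell and 16.1% changed in either direction. The median difference of the members was 2.31, against 0.04 for all features. Lilrb4a, Tigit, Pdcd1, Lag3, Havcr2 and Ctla4 were the 6 that rose, and all 6 also rose in CD8+ cells. The groups have 2 arrays each, so several calls hung on a single array, as given beside them.

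Pdcd1 had log2 levels of 5.27 and 4.99 in allogeneic CD4+ cells, against 2.10 and 2.70 in syngeneic CD4+ cells, a difference of 2.73 ± 0.35 (adjusted p 0.0004). Tigit had 2.26 and 1.78 in allogeneic CD4+ cells, against -1.97 and -1.98 in syngeneic ones, and rose by 4.00 ± 0.22 (adjusted p 1.45e-06). Lilrb4a had 7.13 and 6.53 in allogeneic CD4+ cells, against 0.41 and 1.64 in syngeneic CD4+ cells, a difference of 5.80 ± 0.51 (adjusted p 3.37e-05), and its second probe differed by 5.6. The CD4+ groups did not overlap for these 3 genes, and leaving out any 1 array kept their calls. The calls were lost with only the compared groups in the fit, with adjusted p-values of 0.0754 for Pdcd1, 0.0549 for Tigit and 0.0555 for Lilrb4a, and on slide 2 alone (0.241, 0.113 and 0.154). Beside Lilrb4a and Havcr2, which myeloid cells also carry, the macrophage and monocyte sum was 77.3 to 96.2 in allogeneic CD4+ cells, against 20.6 to 37.1 in syngeneic ones, and 3 of 11 of these markers rose. C1qb rose by 1.89 ± 0.36 (adjusted p 0.00426). The part of such cells in the levels of Lilrb4a and Havcr2 was not tested.

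Lag3 had 1.11 and 1.24 in allogeneic CD4+ cells, against -3.26 and -0.96 in syngeneic CD4+ cells. The syngeneic arrays were far apart, and the rise of 3.28 ± 0.66 (adjusted p 0.00608) was not called without syngeneic replicate 1 (2.13, adjusted p 0.0621). Havcr2 showed the same spread, with 1.31 and 1.43 in allogeneic CD4+ cells, against -2.14 and 0.27 in syngeneic ones. Its rise of 2.31 ± 0.66 (adjusted p 0.0338) was lost without allogeneic replicate 1 (2.37, adjusted p 0.0835), without allogeneic replicate 2 (2.24, adjusted p 0.0908) and without syngeneic replicate 1 (1.1, adjusted p 0.307), and was 3.51 without syngeneic replicate 2. Ctla4 had 2.37 and 3.19 in allogeneic CD4+ cells, against 0.34 and 1.66 in syngeneic CD4+ cells. It rose by 1.78 ± 0.51 (adjusted p 0.0347), a call lost without allogeneic replicate 2 (1.37, adjusted p 0.157) or syngeneic replicate 1 (1.12, adjusted p 0.289). Regulatory T-cell markers summed to 95.9 to 131 in allogeneic CD4+ cells and 52.9 to 64.3 in syngeneic CD4+ cells, 2 of 8 rose, and their part in the Ctla4 level was not tested.

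Cd160 went the other way in CD4+ cells. Its levels were -4.79 and -2.87 in allogeneic CD4+ cells, neither well above background, against -1.86 and -1.17 in syngeneic CD4+ cells. Cd160 fell by 2.31 ± 0.48 on the log2 scale (adjusted p 0.00673). As a bound, it was at least 3.27-fold lower in allogeneic cells, and the call was lost without syngeneic replicate 2 (-1.97, adjusted p 0.0517). Without allogeneic replicate 1 the value was -1.35, and the call was kept. Natural killer markers summed to 23.7 to 25.0 in allogeneic CD4+ cells, against 11.8 to 47.9 in syngeneic CD4+ cells, and of 7 tested, 1 rose, 2 fell and 4 were not called. Eomes, which T cells also express, rose by 3.11 ± 0.25 (adjusted p 1.89e-05), and Klra8 was lower in allogeneic cells (-1.43 ± 0.34, adjusted p 0.0141). Klrb1c, a defining natural killer marker, was at least 7.79-fold lower in allogeneic CD4+ cells (adjusted p 0.00848) and well above background on neither allogeneic array. The part of natural killer cells in the Cd160 level was not tested.

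Btla had 5.05 and 4.19 in allogeneic CD4+ cells, against 3.18 and 3.29 in syngeneic ones. The arrays did not overlap, but the difference of 1.39 ± 0.47 missed the threshold (adjusted p 0.0628), and it passed without allogeneic replicate 2 (1.82, adjusted p 0.0406) and with the slide as a block (1.39, adjusted p 0.04997). Cd200r1 had 0.37 and -0.24 in allogeneic CD4+ cells, against -0.31 and -0.26 in syngeneic CD4+ cells, a difference of 0.35 ± 0.41 (adjusted p 0.618). All 9 members had non-overlapping CD4+ arrays, 8 higher and 1 lower, where 28.2% of all features were higher without overlap, 22.9% lower and 51.2% either. Within slide 1 alone, which like slide 2 holds 1 array of each CD4+ group, the 6 receptors that rose kept their sign, from 2.03 for Ctla4 to 6.72 for Lilrb4a. Within slide 2 they ran from 1.16 to 4.89. Cd160 was negative on both slides, with its allogeneic array not well above background on either. On slide 2 none of the 7 was called by limma, which had 1 array in each CD4+ group there and took the spread from groups with more arrays.

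Whether the response to the allogeneic setting differed between subsets was tested by the interaction, the CD8+ difference minus the CD4+ difference. It was called for 4 of the 9 receptors, positive for all 4 and so higher in CD8+ cells, against 5.27% of all features called with a positive value and 11.9% in either direction. Cd160, which rose in CD8+ cells and fell in CD4+ cells, had a fitted interaction of 6.16 ± 0.61 (adjusted p 0.000202). Neither allogeneic splenic CD4+ array was well above background, so its size is uncertain, and after normexp it was 3.92 (adjusted p 8.77e-06). Pdcd1 differed by 3.45 ± 0.45 (adjusted p 0.000932), Cd200r1 by 3.36 ± 0.53 (adjusted p 0.00274) and Tigit by 2.57 ± 0.29 (adjusted p 0.000409). The Tigit value has the same limit on 2 of 3 syngeneic CD8+ arrays, and after normexp it was 0.95 (adjusted p 0.00366). These 4 calls were kept when any 1 array was left out. Lag3 (2.31 ± 0.86, adjusted p 0.0975) and Ctla4 (1.99 ± 0.66, adjusted p 0.0696) missed the threshold. Both passed without syngeneic CD4+ replicate 1, at 3.47 (adjusted p 0.0189) for Lag3 and 2.65 (adjusted p 0.0429) for Ctla4. Lag3 also passed without allogeneic CD8+ replicate 1 (2.9, adjusted p 0.0372), and Ctla4 without syngeneic CD8+ replicate 3 (2.31, adjusted p 0.0494) and with the slide as a block (2.22, adjusted p 0.00876). For Lilrb4a the interaction was 0.24, with a 95% confidence interval of -1.19 to 1.66, and for Havcr2 it was 0.70, with an interval of -1.15 to 2.56.

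**Figure D3:**
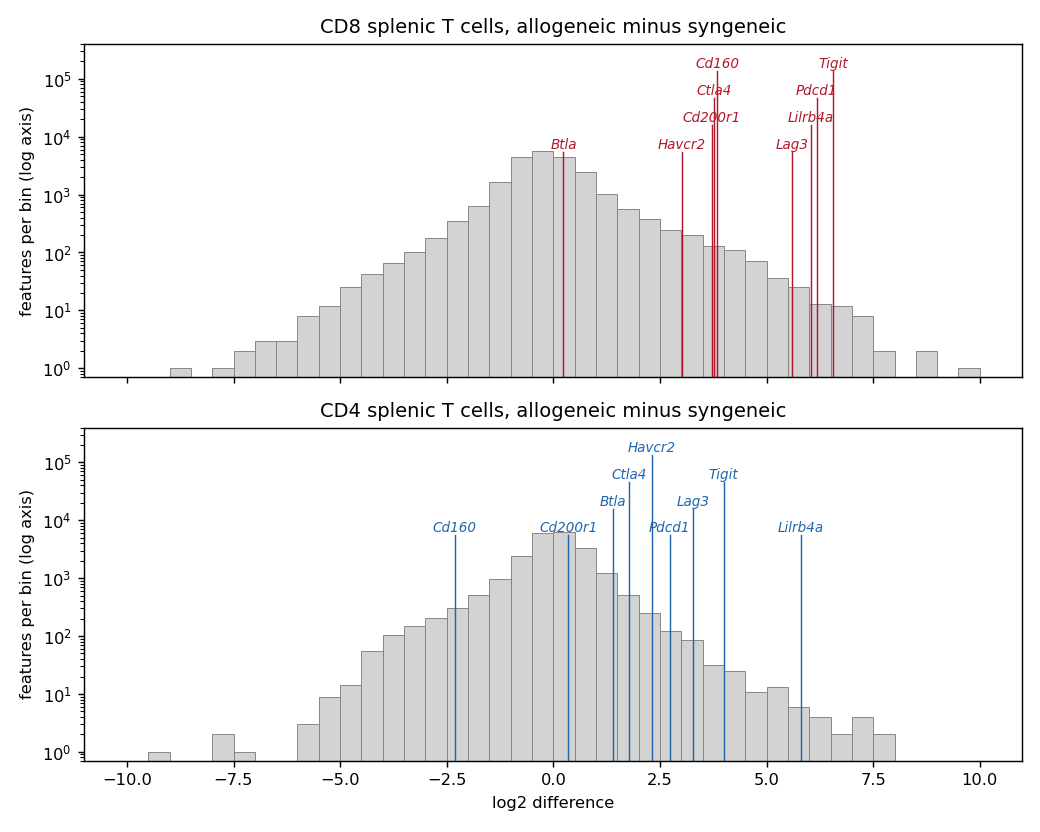
Number of features (y axis, log scale) in bins of 0.5 of the log2 difference between allogeneic and syngeneic splenic cells (x axis), for CD8+ cells in the upper and CD4+ cells in the lower panel, with the receptors marked by lines. Pdcd1, Tigit, Lilrb4a and Lag3 lie in the thin right tail in CD8+ cells, and Lilrb4a in CD4+ cells.

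The windows around the start sites of 4 receptors that rose in both subsets, and of Cd160, which rose in CD8+ and fell in CD4+ cells, are shown so that short motifs of factors known to act on these genes can be seen in place. Each runs from 250 bases before to 50 after the annotated start and is printed 5′ to 3′ on the strand of the gene (RefSeq, GRCm38.p6), and capitals mark any motif found. RefSeq windows were matched for 6 of the 9 genes, 7 windows in all. The Pdcd1 window is chr1:94052504-94052803 (minus strand), that of Tigit chr16:43664135-43664434 (minus), that of Ctla4 chr1:60908775-60909074 (plus), that of Havcr2 chr11:46454681-46454980 (plus), and the Cd160 window shown, the one with more motifs of its 2, chr3:96814472-96814771 (minus).
Pdcd1: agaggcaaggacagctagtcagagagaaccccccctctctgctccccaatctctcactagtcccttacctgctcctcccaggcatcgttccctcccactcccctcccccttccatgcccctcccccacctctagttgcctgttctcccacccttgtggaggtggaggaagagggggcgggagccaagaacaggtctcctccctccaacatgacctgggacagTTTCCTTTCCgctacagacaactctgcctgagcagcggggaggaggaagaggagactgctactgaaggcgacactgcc
Tigit: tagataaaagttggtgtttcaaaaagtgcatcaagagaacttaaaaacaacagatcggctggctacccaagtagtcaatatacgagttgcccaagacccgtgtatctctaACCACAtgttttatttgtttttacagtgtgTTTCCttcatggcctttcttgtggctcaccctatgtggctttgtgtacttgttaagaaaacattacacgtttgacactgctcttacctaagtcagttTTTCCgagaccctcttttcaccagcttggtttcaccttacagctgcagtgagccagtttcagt
Ctla4: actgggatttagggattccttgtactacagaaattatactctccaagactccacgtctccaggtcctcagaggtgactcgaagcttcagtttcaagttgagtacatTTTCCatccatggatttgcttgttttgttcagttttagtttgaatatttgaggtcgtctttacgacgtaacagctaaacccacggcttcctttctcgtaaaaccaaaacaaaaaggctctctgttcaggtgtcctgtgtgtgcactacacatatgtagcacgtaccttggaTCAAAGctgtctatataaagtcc
Havcr2: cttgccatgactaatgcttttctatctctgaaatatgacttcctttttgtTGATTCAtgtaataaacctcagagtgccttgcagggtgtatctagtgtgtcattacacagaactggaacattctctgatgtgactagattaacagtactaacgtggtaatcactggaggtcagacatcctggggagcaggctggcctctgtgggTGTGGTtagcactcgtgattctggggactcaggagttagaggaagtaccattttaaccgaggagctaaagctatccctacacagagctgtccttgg
Cd160: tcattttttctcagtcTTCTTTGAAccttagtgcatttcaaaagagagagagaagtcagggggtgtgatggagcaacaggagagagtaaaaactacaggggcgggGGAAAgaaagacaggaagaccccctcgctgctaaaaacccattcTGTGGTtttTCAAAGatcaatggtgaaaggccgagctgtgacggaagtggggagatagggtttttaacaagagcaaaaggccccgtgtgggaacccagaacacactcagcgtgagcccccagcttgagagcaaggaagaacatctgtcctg

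The motifs searched on both strands were the NFAT core GGAAA, the AP-1 site TGANTCA, the T-box site AGGTGTNA, the RUNX site TGTGGT, the GAS element TTCNNNGAA bound by STAT proteins, and the TCF/LEF core CTTTGA. An NFAT core stood in 4 of the 7 windows of the receptors and in 61.3% of all 32851 windows, so it is a common string. Pdcd1 held 2 of them side by side at -28 and -23 from the start site, Tigit 2 at -110 and -13, and Ctla4 1 at -144. A RUNX site stood in 5 of 7 windows, against 16.8% of all, with both windows of Cd160 among the 5. Havcr2 held the only AP-1 site, at -200, where 7.81% of all windows had one. The Cd160 window held the only GAS element, at -234, overlapping a TCF/LEF core at -232, with a further TCF/LEF core at -92. Ctla4 also held a TCF/LEF core, 27 bases after the start site, so this core stood in 2 of the 7 windows. Among all windows, 8.3% held a GAS element and 16% a TCF/LEF core. The T-box motif stood in none of the 7 windows and in 3.03% of all. A match describes the letters only.

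The second comparison asked whether donor T cells in the ovary, the attacked organ, differed in these receptors from donor T cells in the spleen of allogeneic recipients. In CD8+ cells 0 of the 9 receptors was called by limma, where 0.53% of all features were, and 2 of 9 (Cd160 and Btla) had an unadjusted p under 0.05, as did 8.31% of all features. In CD4+ cells 0 of 9 was called, where 0.907% of all features were, and the same 2 genes had an unadjusted p under 0.05, as did 15.7% of all features. The median difference of the members was -0.04 in CD8+ cells, against 0.03 for all features, and 0.20 in CD4+ cells, against -0.04 for all features. Of 7 tested markers of ovarian granulosa and luteal cells, 3 rose and 4 were not called in ovarian CD8+ cells. In ovarian CD4+ cells 2 of the 7 rose and 5 were not called. Hsd3b1, a steroid-making enzyme, was at least 19.7-fold higher in ovarian CD8+ cells (adjusted p 0.000183) and at least 15.1-fold higher in ovarian CD4+ cells (adjusted p 0.00367). It was well above background on no splenic array. It therefore passed the filter on dim probes only through the ovary, which favoured a higher ovarian level. The markers' summed level was 19.8 to 24.2 in ovarian CD8+ cells, against 19.9 to 21.3 in splenic ones, and 32.3 to 33.0 in ovarian CD4+ cells, against 24.5 to 27.0 in splenic ones. Their part in the receptor levels was not tested.

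Pdcd1 had log2 levels of 7.0, 7.04, 6.51 and 7.0 in ovarian CD8+ cells, against 6.63, 6.73 and 6.55 in allogeneic splenic CD8+ cells. Replicate 3 of the ovary lay below all splenic arrays and the other 3 above them, and the difference was 0.25, with a 95% confidence interval of -0.33 to 0.83. Tigit had 2.56, 2.62, 2.27 and 2.61 in ovarian CD8+ cells, against 2.64, 2.58 and 2.56 in splenic ones. The ranges overlapped, with a difference of -0.08 and an interval of -0.45 to 0.29. In CD4+ cells Pdcd1 had 5.52 and 5.14 in the ovary, against 5.27 and 4.99 in the spleen (0.20, interval -0.56 to 0.96), and Tigit 1.90 and 1.45 in the ovary, against 2.26 and 1.78 in the spleen (-0.35, interval -0.83 to 0.14). For Pdcd1 and Tigit in both subsets, and for Lilrb4a in CD8+ cells, the interval lay within 1 log2 unit of 0. The remaining intervals reached further, so differences of more than 1 log2 unit are not excluded for those genes.

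Lag3 had 3.77, 3.77, 3.28 and 3.81 in ovarian CD8+ cells, against 1.87, 3.58 and 3.67 in splenic ones. Splenic replicate 1 was the low array, and the difference of 0.62 (interval -0.48 to 1.72) was 0.03 without it. In CD4+ cells Lag3 had 1.68 and 1.06 in the ovary, against 1.11 and 1.24 in the spleen. Havcr2 had 4.53, 4.55, 4.19 and 4.54 in ovarian CD8+ cells, against 4.44, 4.18 and 4.85 in splenic CD8+ cells (-0.04, interval -1.13 to 1.06), and 1.39 and 1.84 in ovarian CD4+ cells, against 1.31 and 1.43 in splenic CD4+ cells. Ctla4 had 1.25, 1.14, 1.82 and 1.09 in ovarian CD8+ cells, against 1.37, 1.08 and 2.30 in splenic ones (-0.26, interval -1.11 to 0.59). Its CD4+ levels were 2.49 and 2.79 in the ovary, against 2.37 and 3.19 in the spleen. None of these groups was apart from its neighbour. Lilrb4a had 6.06, 6.11, 5.66 and 6.04 in ovarian CD8+ cells, against 6.16, 6.10 and 5.40 in splenic CD8+ cells, and 7.07 and 6.95 in ovarian CD4+ cells, against 7.13 and 6.53 in splenic CD4+ cells.

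Btla had lower means in the ovary in both subsets, though neither difference was called. Its levels were 1.74, 1.92, 1.16 and 1.95 in ovarian CD8+ cells, against 3.87, 2.51 and 2.61 in allogeneic splenic CD8+ cells. The ranges did not touch, and the difference was -1.30 ± 0.36 (adjusted p 0.19), or -0.86 without splenic replicate 1. In CD4+ cells the levels were 3.28 and 2.84 in the ovary, against 5.05 and 4.19 in the spleen, a difference of -1.56 ± 0.47 (adjusted p 0.151), and -1.99 without splenic replicate 2 (adjusted p 0.0496). BTLA is also a B-cell receptor, and the B-cell markers were lower in sum in the ovary too. Their sum was 2.42 to 3.82 in ovarian CD8+ cells, against 4.58 to 7.05 in allogeneic splenic CD8+ cells, and 3.19 to 3.31 in ovarian CD4+ cells, against 11.7 to 12.6 in allogeneic splenic CD4+ cells. Of 9 tested B-cell markers, 2 fell in ovarian CD8+ and 4 in ovarian CD4+ cells. Between the spleens, this sum was 18.5 to 31.1 in syngeneic CD8+ and 43.4 to 91.6 in syngeneic CD4+ cells, above the allogeneic sums. Btla was not lower in allogeneic cells there (0.24 in CD8+ and 1.39 in CD4+ cells, neither called). The part of B cells in the Btla level was not tested.

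Cd160 had 1.24, 1.33, 1.28 and 1.42 in ovarian CD8+ cells, against 2.53, 2.23 and 1.65 in splenic ones. All ovarian arrays lay below all splenic arrays, and the difference of -0.82 ± 0.36 was not called (adjusted p 0.581). In CD4+ cells the levels were -2.53 and -2.62 in the ovary, against -4.79 and -2.87 in the spleen, both splenic arrays below the limit of detection above background. The fitted difference of 1.25 ± 0.48 was not called (adjusted p 0.232). It was 2.22 without splenic replicate 2, which leaves 1 splenic array that was not well above background. As a bound, Cd160 was at least 1.57-fold higher in ovarian CD4+ cells, a value that rests on splenic replicate 1. The lowest signal well above background on splenic replicate 2 was -2.50, above both ovarian levels, so that array cannot show a difference in this direction. The order of the tissues in CD4+ cells is therefore not settled. Cd200r1 had 1.48, 1.91, 0.89 and 1.84 in ovarian CD8+ cells, against 0.95, 0.47 and 1.49 in splenic CD8+ cells (0.56, interval -0.12 to 1.24), and 1.08 and 0.80 in ovarian CD4+ cells, against 0.37 and -0.24 in splenic CD4+ cells (0.87, interval -0.01 to 1.76). Non-overlapping arrays were seen for 2 of 9 receptors in CD8+ cells, Cd160 and Btla, both lower in the ovary, where 12.7% of all features did not overlap and 5.32% were lower without overlap. In CD4+ cells they were seen for 3 of 9, Cd160, Cd200r1 and Btla, where 33.7% of all features did not overlap. By direction these were 15.7% higher in the ovary, as Cd160 and Cd200r1 were, and 18% lower, as Btla was.

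**Figure D4:**
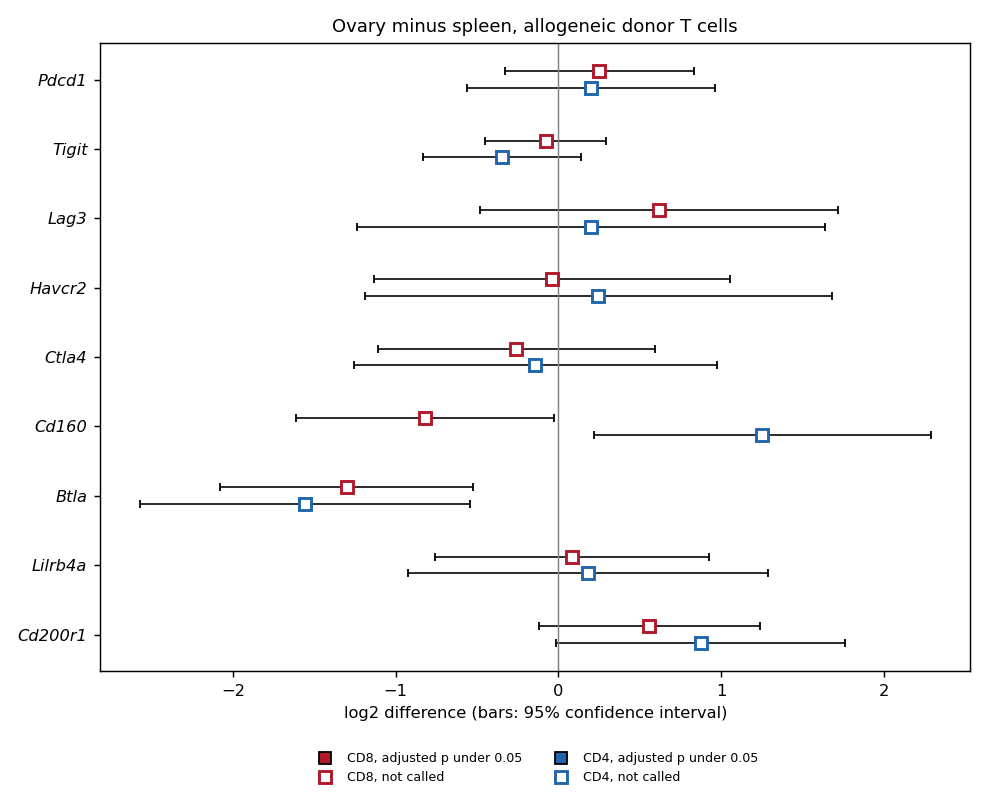
Log2 difference between ovarian and splenic donor T cells of allogeneic recipients (x axis) for each receptor (y axis), CD8+ above CD4+, with bars of the 95% confidence interval. No receptor passed an adjusted p of 0.05, the intervals of Btla lie left of 0 in both subsets, and those of Cd160 lie on opposite sides of 0.

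Whether the ovary and the spleen differed unequally in the subsets was tested as the CD8+ difference minus the CD4+ difference. It was called for 0 of 9 receptors by limma and for 0% of all features, and 1 receptor, Cd160, had an unadjusted p under 0.05, as did 11.1% of all features. Its fitted value, which includes the splenic CD4+ arrays not well above background, was -2.07 ± 0.60 (adjusted p 0.279). It was -3.03 without allogeneic splenic CD4+ replicate 2, which leaves 1 array in that group. Within slide 1 alone, Btla was -1.36 in CD8+ and -1.77 in CD4+ cells and within slide 2 alone it was -1.05 in CD8+ and -1.34 in CD4+ cells, the same sign on both slides. With array weights estimated in limma, 3 receptors passed between ovarian and splenic CD8+ cells, Cd160 (-0.86, adjusted p 0.0167), Btla (-0.81, adjusted p 0.0451) and Cd200r1 (1.09, adjusted p 0.0154), while that setting called 1693 of the 22835 features, against 121 without weights. Lag3 in CD8+ cells was 1.05 within slide 1 and -0.13 within slide 2.

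The third comparison set CD8+ against CD4+ donor cells within each source. In the ovary, 5 receptors were higher in CD8+ cells and 1, Btla, was lower, where 8.47% of all features were higher, 9.03% lower and 17.5% called in either direction. In the allogeneic spleen, 4 were higher and 1, Btla, was lower, where 15.2% of all features were higher, 14.3% lower and 29.4% called. In the syngeneic spleen, 1 was higher and 4 were lower, where 1.27% of all features were higher, 2.88% lower and 4.14% called. Pdcd1, Lag3, Havcr2 and Cd160 were higher in CD8+ cells of both allogeneic tissues.

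Cd160 differed by subset by 3.89 ± 0.41 in the ovary (adjusted p 0.000109) and at least 41.1-fold higher in CD8+ cells of the allogeneic spleen (adjusted p 5.99e-06), with -0.20 ± 0.43 in the syngeneic spleen (adjusted p 0.944). Its CD8+ arrays lay between 1.24 and 2.53 in the allogeneic groups, and no allogeneic CD4+ array exceeded -2.53. Havcr2 was the one receptor higher in CD8+ cells of all 3 sources, by 2.84 ± 0.57 in the ovary (adjusted p 0.00625), 3.12 ± 0.60 in the allogeneic spleen (adjusted p 0.00303) and 2.42 ± 0.60 in the syngeneic spleen (adjusted p 0.0426). The syngeneic call was lost without CD4+ replicate 1 (1.21, adjusted p 0.375), without CD8+ replicate 2 (2.61, adjusted p 0.0758) or without CD8+ replicate 3 (1.88, adjusted p 0.107).

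Pdcd1 changed its order with the setting. It was higher in CD8+ than in CD4+ cells of the ovary (1.56 ± 0.30, adjusted p 0.00535) and of the allogeneic spleen (1.51 ± 0.32, adjusted p 0.0051), and lower in CD8+ than in CD4+ cells of the syngeneic spleen (-1.94 ± 0.32, adjusted p 0.0037). The ovarian call was lost without CD4+ replicate 2 (1.37, adjusted p 0.0662) and the syngeneic one without CD4+ replicate 2 (-1.65, adjusted p 0.0715). Tigit showed a like turn, with 0.84 ± 0.19 in the ovary (adjusted p 0.0124), 0.57 ± 0.20 in the allogeneic spleen, which was not called (adjusted p 0.0529), and -2.0 ± 0.20 in the syngeneic spleen (adjusted p 0.000163). That last value includes the 2 syngeneic CD8+ arrays not well above background, and after normexp it was -0.55 (adjusted p 0.0185). Without ovarian CD4+ replicate 2 the Tigit value in the ovary was 0.62 (adjusted p 0.161), and without allogeneic splenic CD4+ replicate 1 its splenic value was 0.81 (adjusted p 0.0223). With the slide as a block the splenic value was 0.53 (adjusted p 0.0234). The interaction given above tested this turn between the spleens of allogeneic and syngeneic recipients for both genes.

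Lag3 was higher in CD8+ cells by 2.29 ± 0.57 in the ovary (adjusted p 0.0185) and 1.87 ± 0.60 in the allogeneic spleen (adjusted p 0.0362), against -0.45 ± 0.60 in the syngeneic spleen (adjusted p 0.875). The ovarian call was lost without CD4+ replicate 2 (1.98, adjusted p 0.161). The splenic call was lost without CD8+ replicate 2 (1.6, adjusted p 0.107), CD8+ replicate 3 (1.55, adjusted p 0.0857), CD4+ replicate 1 (1.80, adjusted p 0.109) or CD4+ replicate 2 (1.93, adjusted p 0.111). Ctla4 was lower in CD8+ cells of the syngeneic spleen (-3.19 ± 0.47, adjusted p 0.00177), and had -1.31 ± 0.44 in the ovary (adjusted p 0.0605) and -1.19 ± 0.47 in the allogeneic spleen (adjusted p 0.0718). Those near-threshold values passed without ovarian CD8+ replicate 3 (-1.48, adjusted p 0.0482) and without splenic CD8+ replicate 3 (-1.55, adjusted p 0.0253). With the slide as a block both Ctla4 values passed, at -1.31 in the ovary (adjusted p 0.00994) and -1.08 in the allogeneic spleen (adjusted p 0.0219). Foxp3, the defining factor of regulatory T cells, was lower in CD8+ than in CD4+ cells too, with differences of -4.52 ± 0.39 in the ovary (adjusted p 2.4e-05), -3.41 ± 0.41 in the allogeneic spleen (adjusted p 0.000168) and -4.58 ± 0.41 in the syngeneic spleen (adjusted p 5.19e-05), and its part in the Ctla4 level was not tested.

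Btla was lower in CD8+ cells of the ovary (-1.37 ± 0.40, adjusted p 0.0369) and of the allogeneic spleen (-1.63 ± 0.43, adjusted p 0.0145), with -0.48 ± 0.43 in the syngeneic spleen (adjusted p 0.749). The ovarian call was lost when any 1 of its 6 arrays was left out, with values of -1.59 to -1.15. The splenic call was lost without CD4+ replicate 1 (-1.19, adjusted p 0.103) or CD8+ replicate 2 (-1.38, adjusted p 0.0525). Cd200r1 was lower in CD8+ cells of the syngeneic spleen (-2.46 ± 0.37, adjusted p 0.00216) and had 0.59 ± 0.35 in the ovary and 0.91 ± 0.37 in the allogeneic spleen, neither called. Lilrb4a had negative values in all 3 sources, -1.04 ± 0.44, -0.94 ± 0.46 and -1.18 ± 0.46, none called, though the syngeneic one passed without CD8+ replicate 3 (-1.67, adjusted p 0.0341). Beside these differences, the macrophage and monocyte sums were 7.91 to 8.78 in ovarian CD8+ cells, against 39.4 to 101 in ovarian CD4+ cells, and all 11 tested markers of that list were lower in CD8+ cells of the ovary. Their part in the Lilrb4a level was not tested. Within slide 1 alone the differences of Pdcd1, Lag3 and Havcr2 ran from 1.5 to 3.15 in the ovary and from 1.41 to 3.0 in the allogeneic spleen. Within slide 2 alone they ran from 1.62 to 2.52 in the ovary and from 1.56 to 3.42 in the allogeneic spleen. Cd160 in the ovary was 3.82 within slide 1 and 3.97 within slide 2.

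**Figure D5:**
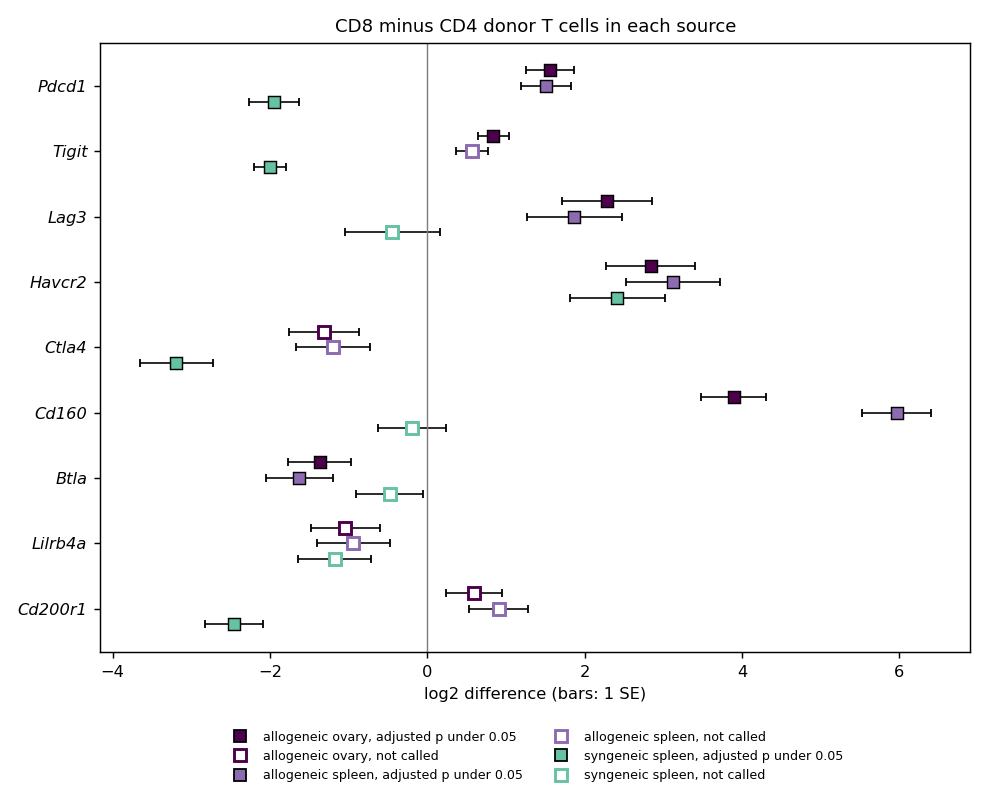
Log2 difference between CD8+ and CD4+ donor T cells (x axis) for each receptor (y axis) in the allogeneic ovary, the allogeneic spleen and the syngeneic spleen, from the top down, with bars of 1 SE; filled squares passed an adjusted p of 0.05. Pdcd1, Tigit and Cd200r1 lie right of 0 in both allogeneic sources and left of 0 in the syngeneic spleen, and Havcr2 lies right of 0 in all 3.

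By mean level over the 6 groups, ovarian CD8+ cells ranked first for Pdcd1, Lag3 and Cd200r1, and allogeneic splenic CD8+ cells for Tigit and Havcr2. For all of these genes the second rank was the other allogeneic CD8+ group, and the ranges overlapped, so the arrays do not separate that order. Cd160 was first in allogeneic splenic CD8+ cells, with no overlap with ovarian CD8+ cells below it. Ctla4 and Lilrb4a were first and second in the allogeneic CD4+ groups, which overlapped, ahead of the allogeneic CD8+ groups. Btla was first in allogeneic splenic CD4+ cells and last in ovarian CD8+ cells, neither of which overlapped with its neighbour in rank, while the 4 groups between them overlapped one with the next. Syngeneic splenic CD8+ cells ranked last for Pdcd1, Tigit, Lag3, Ctla4, Lilrb4a and Cd200r1.

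Genes of the receptors' pathway were described from lists of ligands, co-stimulatory molecules, adaptors, transcription factors and further inhibitory receptors. Their counts are to be read beside the shares of all features, 18.8% higher and 19.6% lower in allogeneic against syngeneic CD8+ cells, and 10.4% higher and 5.7% lower in CD4+ cells. The median over all features was -0.16 in CD8+ and 0.04 in CD4+ cells. Of 10 tested ligand genes, 3 rose and 1 fell in allogeneic against syngeneic splenic CD8+ cells, with a median of 0.35, and 4 rose in CD4+ cells, with a median of 0.19. Lgals3, encoding galectin-3, a ligand of LAG-3, rose by 4.04 ± 0.34 in CD8+ (adjusted p 4.44e-06, with 1 of the 3 allogeneic spots left out as an outlier by the scanner) and 2.55 ± 0.38 in CD4+ cells (adjusted p 0.00124). Pdcd1lg2, encoding the PD-1 ligand PD-L2, rose by 3.06 ± 0.31 in CD8+ (adjusted p 8.67e-06) and 1.69 ± 0.37 in CD4+ cells (adjusted p 0.0104). Cd200, the ligand of CD200R1, rose by 2.62 ± 0.30 in CD8+ (adjusted p 2.34e-05) and 1.6 ± 0.36 in CD4+ cells (adjusted p 0.0116). Tnfrsf14, which encodes HVEM, the partner of BTLA and CD160, was lower in allogeneic CD8+ cells (-0.94 ± 0.18, adjusted p 0.00122), and Cd274, encoding PD-L1, rose in CD4+ cells (0.94 ± 0.23, adjusted p 0.0186).

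Of 17 transcription factors known to act on genes of this kind, 11 rose and 3 fell in CD8+ cells (18.8% and 19.6% of all features), with a median of 1.26, and 6 rose and 2 fell in CD4+ cells (10.4% and 5.7% of all features), with a median of 0.51. Tox, which sustains the programme of chronically stimulated CD8+ cells, rose by 3.27 ± 0.18 in CD8+ (adjusted p 6.59e-08) and 1.83 ± 0.22 in CD4+ cells (adjusted p 0.000246). Prdm1, encoding the repressor Blimp-1, rose by 4.40 ± 0.25 in CD8+ cells (adjusted p 8.52e-08). Batf, an AP-1 family factor, rose by 2.79 ± 0.15 in CD8+ (adjusted p 7.43e-08) and 2.25 ± 0.19 in CD4+ cells (adjusted p 2.66e-05). Tcf7, encoding TCF1 of naive and stem-like cells, fell by 2.20 on the log2 scale in CD8+ cells (SE 0.12, adjusted p 8.86e-08). Bach2, a repressor of effector genes, was lower in allogeneic CD4+ cells (-3.12 ± 0.40, adjusted p 0.000371), and Eomes, a T-box factor, rose there by 3.11 ± 0.25 (adjusted p 1.89e-05). Tcf7 was the one factor of the list called between tissues, lower in the ovary than in the allogeneic spleen in CD8+ (-0.99 ± 0.12, adjusted p 0.00184) and CD4+ cells (-0.92 ± 0.15, adjusted p 0.0208).

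Of 15 phosphatases and adaptors of inhibitory signalling, 9 rose and 2 fell in CD8+ cells (18.8% and 19.6% of all features), with a median of 0.61, and 3 rose in CD4+ cells (10.4% of all features), with a median of 0.11. Ptpn11, encoding the phosphatase SHP-2 that PD-1 recruits, rose by 1.39 ± 0.11 in CD8+ (adjusted p 1.63e-06) and 1.03 ± 0.14 in CD4+ cells (adjusted p 0.000507). Its relative Ptpn6, encoding SHP-1, was lower in allogeneic CD8+ cells (-1.16 ± 0.17, adjusted p 0.000225). Sh2d1a, encoding the adaptor SAP, rose by 1.84 ± 0.16 in CD8+ (adjusted p 2.28e-06) and 1.11 ± 0.19 in CD4+ cells (adjusted p 0.00238). Of 6 activating or co-stimulatory molecules, 4 rose and 1 fell in CD8+ cells (18.8% and 19.6% of all features), with a median of 0.84, and 1, Icos, rose in CD4+ cells (10.4% of all features). Icos, a relative of CD28, rose by 1.39 ± 0.16 in CD8+ (adjusted p 3.43e-05) and 1.43 ± 0.20 in CD4+ cells (adjusted p 0.000693), and Cd28 rose by 1.04 ± 0.14 in CD8+ cells (adjusted p 0.000116).

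Of 13 further inhibitory receptors, 3 rose and 3 fell in CD8+ cells (18.8% and 19.6% of all features), with a median of -0.14, and 2 rose and 1 fell in CD4+ cells, with a median of 0.37. Klrc1, encoding the lectin NKG2A, rose by 5.23 ± 0.46 in CD8+ cells (adjusted p 3.21e-06), where 1 of 3 syngeneic arrays was well above background, and by 2.38 ± 0.56 in CD4+ cells (adjusted p 0.0145). Klrg1, a lectin of effector cells, rose by 5.49 ± 0.51 in CD8+ cells (adjusted p 4.92e-06), with 2 of 3 syngeneic arrays above background. Cd101 rose by 2.72 ± 0.26 in CD8+ (adjusted p 6.19e-06) and 1.73 ± 0.32 in CD4+ cells (adjusted p 0.00361). Cd72, a receptor known from B cells, was lower in allogeneic CD8+ (-1.09 ± 0.16, adjusted p 0.000203) and CD4+ cells (-1.88 ± 0.20, adjusted p 0.000106), beside the lower B-cell marker sums. These shares, 3 of 13 in each direction in CD8+ cells, are near those of all features.

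The genes whose levels ran most alike with each receptor over the 16 arrays were taken from 13528 features with a symbol and a value on every array, and the arrays share groups and slides, so a coefficient mainly reflects the spread between groups. Tigit was most like Prdm1 (Pearson r 0.993), Batf (0.991) and Prc1 (0.99). Pdcd1 was most like Glcci1 (0.991), Cables1 (0.989) and Neil3 (0.988). Lilrb4a was most like Lilr4b (0.996), a near-identical neighbour in the same family, so cross-hybridisation of their probes cannot be told apart from likeness, then Slc39a4 (0.991) and Gramd1b (0.988). For Lag3 they were Map2, H4c3 and Rgs8 (0.98 to 0.976), for Havcr2 Tmed1, Chst11 and Rbbp7 (0.964 to 0.956) and for Ctla4 Sypl, Slc12a8 and C2cd4b (0.974 to 0.967). Cd160 was most like Septin4, Igf2r and Rhoq (0.97 to 0.961) and Cd200r1 like Eif4e3, Akap12 and Carhsp1 (0.969 to 0.964). Btla had the lowest likeness of the 9, with Msl3l2, Fech and Dgat2 (0.91 to 0.903). No member was among the 3 genes most like another member.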

How the data were processed

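RNA of sorted donor T cells was profiled on 16 one-colour Agilent arrays. The deposited spot intensity is, per the file headers, the background-subtracted output of Agilent's scanner software (Feature Extraction 11.5.1.1), with flags for spots well above background or outlying. The authors' series matrix was deposited as log2 values, which equal, by comparison with the intensity columns, the signal scaled to the 75th percentile and centred per probe (Pearson r at least 0.9998; array medians -0.344 to 0.494). Processed signals were taken to log2 and set to the 75th percentile of non-control probes on the same array. Outlier-flagged spots were left out. A probe was kept if all arrays of any 1 of the 6 groups had it well above background (31120 of 55681), and the brightest probe on average stood for its gene, giving 22835 features. Accessions of 27656 probes matched RefSeq genes (GRCm38.p6), and 28025 probes are unnamed here. No spot was saturated (0 of all arrays).

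All 16 arrays entered 1 linear model of group means in limma 3.58.1 (R 4.3.3), with 10 residual and 2.16 prior degrees of freedom, and Benjamini-Hochberg adjustment ran over all features. The fit was tested on simulated data. Named genes are the 9 members, up to 4 called genes of smallest p per list, and the 3 features most alike each member. Members and lists were chosen with earlier results of these data known. Alternatives were quantile and normexp normalization (offset 50, on median signals), the authors' series matrix, dim probes kept or required above background on all arrays, averaging a gene's probes, slide and replicate number as blocks, each slide alone, array weights, a trended robust prior, the compared groups only, leaving out each array and, added after seeing the data, leaving out the 2 dimmest arrays. The labels do not say whether replicate numbers in the titles pair the samples, and the main fit did not pair them.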

Additional observations from a re-analysis of the deposited data

Results flagged for a closer look

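Replicate 3 of the ovarian CD8+ cells was the lowest of its 4 arrays for several receptors, by a gap that was large against the range of the group in Dixon's test at the 95% level. It had log2 levels of 6.5114 for Pdcd1, 3.2808 for Lag3, 4.1872 for Havcr2 and 5.6599 for Lilrb4a. The other 3 arrays ran from 7.0 to 7.04 for Pdcd1. Chance flags about 1 in 20 groups in this test, and the 4 genes share the array, so the flags are not independent. The same array was the highest of its group for Ctla4, at 1.8245, by a gap that was not flagged. It was also the dimmest array of its group, with a 75th percentile of 190 units against 311 to 343. The part of brightness in these levels was not tested.

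The response to the allogeneic setting differed between splenic CD8+ and CD4+ cells, by the interaction in limma, for Pdcd1 (3.4507, adjusted p 0.000932), Tigit (2.5684, adjusted p 0.000409), Cd160 (6.1624, adjusted p 0.000202) and Cd200r1 (3.365, adjusted p 0.00274). In the 2 syngeneic splenic groups Cd160 differed by -0.20 between CD8+ and CD4+ cells, while Pdcd1, Tigit and Cd200r1 were lower in CD8+ cells there. Neither allogeneic splenic CD4+ array was well above background for Cd160, and 2 of 3 syngeneic CD8+ arrays were not for Tigit, so the size of these 2 interactions is uncertain.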

How the results depend on the processing

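The 35 called values of a receptor were recomputed 682 times under the alternatives. Of these, 589 kept the call and direction, 93 lost the call and 0 reversed, and 7 of the 35 were never lost. Of 46 values not called, 23 changed sign in some setting, so the directions of those are not settled. The others kept their sign in every setting, though they were not called in the main fit. Of 956 recomputed values of the 46, 52 passed the threshold. The 8 calls in splenic CD8+ cells of allogeneic against syngeneic recipients stayed 8 whenever 1 array was left out, under both normalizations and with the slide as a block. With array weights the number of receptors called was 3 for CD8+ ovary against spleen, 4 for CD4+ allogeneic against syngeneic, and 2 for CD8+ against CD4+ in the allogeneic spleen. After normexp it was 1 for CD4+ ovary against spleen and 8 for CD8+ against CD4+ in the allogeneic spleen, and this scaling moved the median of all features in CD8+ cells from -0.16 to -0.0472 (allogeneic against syngeneic, shift 0.1126). On slide 1 alone it was 1 for CD4+ ovary against spleen and 1 for the interaction of tissue and subset. On slide 2 alone, with fewer arrays, it was 0 for CD4+ allogeneic against syngeneic, for CD8+ against CD4+ in each of the 3 sources and for the interaction of transplant and subset. With only the compared groups in the fit it was 0 for CD4+ allogeneic against syngeneic, 3 for CD8+ against CD4+ in the allogeneic and 2 in the syngeneic spleen. Leaving out 1 array gave 0 to 2 for CD4+ ovary against spleen, 4 to 6 for CD4+ allogeneic against syngeneic, 2 to 6 for CD8+ against CD4+ in the ovary, 3 to 5 in the allogeneic spleen and 4 to 5 in the syngeneic spleen, 4 to 6 for the interaction with transplant and 0 to 1 for that with tissue. Leaving out the 2 dimmest arrays, an alternative chosen after seeing the data, gave 1 for CD4+ ovary against spleen, 2 for CD8+ against CD4+ in the ovary and 1 for the interaction with tissue. Calls nearest the threshold were also lost without a filter on dim probes (Havcr2 and Ctla4 in CD4+ cells, Btla in the ovary, Havcr2 in the syngeneic spleen), and that of Lag3 between subsets of the allogeneic spleen under either normalization. The cause of these changes was not tested. Signal near background limits Tigit on 2 arrays and Cd160 on 2, so their fitted differences there are uncertain in size. Same-numbered replicates did not deviate together in every pair (the lowest correlation was -0.44, between ovarian CD8+ and CD4+ replicate 2), and not every sample was closest to its own number. The arrays of that pair lay on different slides, so number and slide cannot be told apart there. With the replicate number as a block, 0, 0, 8 and 7 receptors were called for CD8+ and CD4+ ovary against spleen and CD8+ and CD4+ allogeneic against syngeneic, 6, 7 and 4 for CD8+ against CD4+ in ovary, allogeneic and syngeneic spleen, 5 for the interaction with transplant and 0 for that with tissue. Among all 22835 features this block called 75 for CD8+ ovary against spleen (121 without it) and 106 for CD4+ (207 without it). It called 9693 for CD8+ allogeneic against syngeneic and 3839 for CD4+. Between subsets it called 3912 in the ovary, 8364 in the allogeneic spleen and 884 in the syngeneic spleen. For the interactions it called 3337 with transplant and 1 with tissue. Over all alternatives the count of called features ran from 0 to 1693 for CD8+ ovary against spleen, 0 to 2075 for CD4+ (207), 1901 to 12012 for CD8+ allogeneic against syngeneic (8774), 0 to 6307 for CD4+ (3678), 27 to 5742 for CD8+ against CD4+ in the ovary (3997), 23 to 8846 in the allogeneic spleen (6719), 0 to 1628 in the syngeneic spleen (946), 0 to 4230 for the interaction with transplant (2727) and 0 to 1541 for that with tissue (0), with the count as reported in parentheses.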

Other observations

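Several factors and lectins that act beside these receptors also differed between the subsets in their response to the allogeneic setting, by the interaction in limma (CD8+ difference minus CD4+ difference). Tcf7 had -1.88 ± 0.20 (SE, adjusted p 0.000257), Irf4, a factor induced by antigen-receptor signalling, 2.39 ± 0.39 (adjusted p 0.00345), Prdm1 2.08 ± 0.39 (adjusted p 0.00709) and Tox 1.45 ± 0.28 (adjusted p 0.00816). Of the 17 transcription factors, 3 had a called positive and 2 a called negative interaction, against 5.27% of all features called positive and 11.9% in either direction. Klrg1 had 4.07 ± 0.81 (adjusted p 0.00883) and Klrc1 2.85 ± 0.73 (adjusted p 0.0274). In syngeneic CD8+ cells Klrg1 was well above background on 2 of 3 arrays and Klrc1 on 1 of 3, so these sizes are uncertain.

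Other genes kept the same order of subsets in all 3 sources. Eomes was higher in CD8+ than in CD4+ cells of the ovary (2.77 ± 0.22), the allogeneic spleen (2.38 ± 0.23) and the syngeneic spleen (3.69 ± 0.23). Maf, a factor of helper and regulatory T cells, was lower in CD8+ cells of the ovary (-2.75 ± 0.31), the allogeneic spleen (-3.21 ± 0.32) and the syngeneic spleen (-4.14 ± 0.32). Cd226, the activating receptor that shares CD155 with TIGIT, was higher in CD8+ cells of the ovary (1.24 ± 0.25), the allogeneic spleen (1.26 ± 0.27) and the syngeneic spleen (1.05 ± 0.27, adjusted p 0.0472). Of 11 tested macrophage and monocyte markers, 1 was higher, 1 lower and 9 not called in ovarian against allogeneic splenic CD4+ cells. In CD8+ cells 0 were higher, 1 was lower and 10 were not called. Over all features 0.907% were called in CD4+ and 0.53% in CD8+ cells. Trem2 was at least 20.8-fold higher in ovarian than in allogeneic splenic CD4+ cells (adjusted p 0.0251). It was well above background on no splenic array, so it passed the filter on dim probes only through the ovary. Cd5l was at least 19.7-fold lower in ovarian than in allogeneic splenic CD8+ cells (adjusted p 0.027).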
